A study of Mus musculus with 24 samples.

Results

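The thymus is dominated by immature T cells, and the baseline transcriptome of such thymocytes was measured here in 6 unirradiated mice against a commercial reference RNA. The members are the 6 arrays labelled control, 3 from female and 3 from male C57BL/6J mice aged 4 to 5 weeks, of 24 arrays in all. The other 18 arrays carry thymocytes of irradiated mice of the same strain and age (low dose, 0.075 Gy of X-rays; high dose, 1.75 Gy of γ-rays; RAR, an adaptive regimen of 0.075 Gy of X-rays and, 6 h later, 1.75 Gy of γ-rays), and serve below only to show where the controls differ from them. Each array held RNA of 1 mouse labelled with Cy5 and the same Universal Mouse RNA, a pool from several cell sources, labelled with Cy3. The values are log2 ratios of Cy5 over Cy3, so that 0 means equal signal and 1 means a 2-fold higher signal in thymocytes. Dyes were not swapped, so a dye effect cannot be told apart from a ratio, and the spread of the reference itself is not part of any test. The thymus was only dispersed and strained, without sorting. In such a bulk sample fewer cells of a type and less RNA per cell cannot be told apart.

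A T cell arises from a bone marrow progenitor that enters the thymus without CD4 or CD8 (double negative), rearranges its T-cell receptor genes with the RAG recombinase, and then carries both coreceptors (double positive). Double-positive cells make up most of the young thymus, and most of them die unless their receptor binds self-peptide on cortical epithelium with moderate strength. The survivors become CD4 or CD8 single-positive cells that leave through sphingosine phosphate and chemokine cues.

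A probe entered the comparison when Cy5 was well above background on all 6 control arrays or Cy3 was on all 6, as flagged by the scanner software, and 29904 of 55681 probes did. Both channels were well above background on all 6 arrays for 23830 of them, while 658 probes had Cy5 on all 6 and Cy3 on none, and 1103 had Cy3 on all 6 and Cy5 on none. A probe of the last 2 kinds could enter only through the channel in which it is bright, and its ratio is given as a bound ("at least N-fold"). A further 4313 probes had 1 channel on all 6 arrays and the other on only some. These too entered through 1 channel only, so the filter in part set their side of 0, but their ratios are printed without a bound. The counts of higher and lower probes and genes hold all these kinds unless both channels are named. Correlations between the 6 control arrays over the 29904 probes compared ranged from 0.950 to 0.972. The median SD of a probe over the 6 arrays was 0.162 on the log2 scale where both channels were measured. The female controls and male control replicates 2 and 3 shared 1 slide, and male control replicate 1 was on another. Among the irradiated arrays, female RAR replicates 2 and 3 stood apart in the share of probes with Cy5 above background (71.8% and 34.7%, against 51.0% to 61.2% in the controls).

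Thymocyte RNA differed from the reference over much of the transcriptome. Past the threshold of the study's methods (at least 1.5-fold, adjusted p under 0.05 in limma), 18156 of the 29904 probes, or 60.7%, differed, of which 9382 (31.4%) were higher and 8774 (29.3%) lower in thymocytes. Where both channels were measured, 54.4% of the probes differed, 30.8% higher and 23.6% lower. Counted over 1 probe a gene, 63.4% of 14394 genes differed, 4356 (30.3%) higher and 4768 (33.1%) lower, and the median log2 ratio of all these genes was -0.01. These shares are the background for every list below. With the raw median signals corrected by normexp and each array centred without loess, the split was 8775 higher against 5338 lower, and the median of all probes moved to 0.19 from 0.05. On that scale the median probe therefore sits slightly higher, but not every gene does: Foxp3, a regulatory T-cell gene, fell to 0.54. Genes near 0 can change side.

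Large ratios were common in both directions. Of the 12171 genes measured in both channels 58.3% differed, 30.5% higher and 27.9% lower. Among them 733 were at least 4-fold higher and 1114 at least 4-fold lower in thymocytes. At 16-fold the counts were 124 and 207, and at 64-fold 12 and 8. The highest ratio among these genes belonged to Dntt, the template-independent polymerase that adds N nucleotides to receptor junctions. Its log2 ratio ran from 8.07 to 8.61 with a median of 8.20, a mean of 8.23 ± 0.20 (SD, n = 6) or 301-fold (limma, adjusted p = 5.18e-07). All 6 arrays lay on the same side of 0, for which the exact two-sided sign-flip test gives 0.03125, the smallest value 6 arrays allow. The same held for 80.8% of the probes compared. Next came Sh2d1a, the SLAM adaptor SAP, with 7.03 to 7.48 (163-fold), and Gzma, a granule protease of cytotoxic cells, with 6.42 to 7.04 (108-fold). The 15 highest also held the chemokine receptor Ccr7 (88.3-fold), Cd8a (80.1-fold), the chromatin organiser Satb1 (75.5-fold), the aquaporin Aqp11 (73.6-fold), the adaptor Sla (61.9-fold) and Themis, which tunes receptor signals at selection (60.4-fold).

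At the other end stood matrix and mesenchymal genes. Fn1, which encodes fibronectin, had log2 ratios from -7.50 to -6.27 with a median of -7.02, a mean of -6.97 ± 0.42 (SD, n = 6) and a 125-fold lower signal (limma, adjusted p = 1.40e-06). Asns, asparagine synthetase, ran from -6.23 to -6.07 (71-fold lower), with an SD of only 0.06. Dlk1, an imprinted inhibitor of differentiation, was 70.5-fold lower and Col1a1, a chain of type I collagen, 60.3-fold lower. The homeobox genes Rhox5 and Prrx2 were 62.4- and 61.9-fold lower.

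Some genes had a signal in one channel only. Plbd1, a phospholipase B-like protein, had values from 7.89 to 9.36 and was at least 274-fold higher in thymocytes, with Cy3 not well above background on any control array. Gpr174, a lymphocyte receptor for lysophosphatidylserine, was at least 50.6-fold higher and Klrd1, the CD94 chain of NK receptors, at least 30.3-fold. In the reference only, the homeobox gene Hoxc6 (-8.85 to -7.41) was at least 121-fold, the protease gene Prss23 at least 106-fold and the desmosomal plakophilin Pkp2 at least 79.1-fold brighter than in thymocytes.

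**Figure D1:**
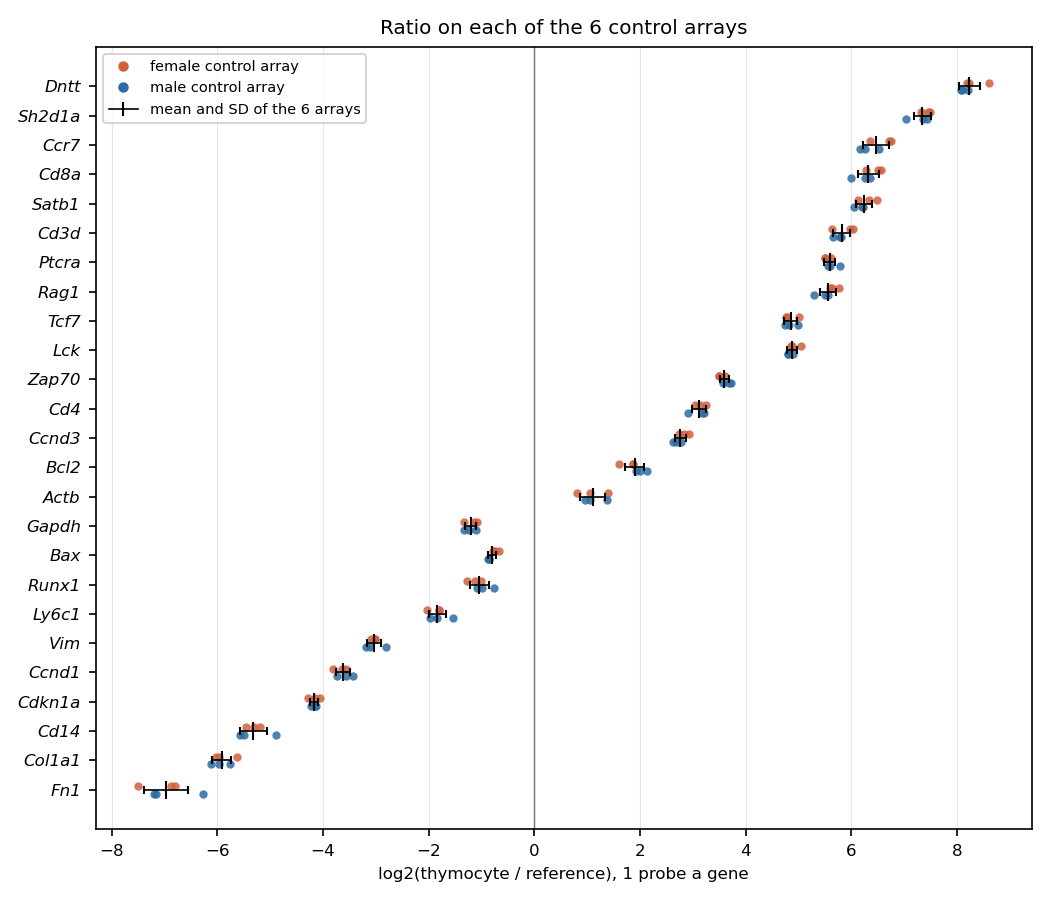
Log2 ratio of thymocyte over reference RNA (x axis) of 25 genes (y axis) on the 3 female and 3 male control arrays (dots), with the mean and SD of the 6 arrays (black). The 6 dots of a gene lie close together beside the differences between genes, from Dntt at 8.23 to Fn1 at -6.97, and no gene shown has dots on both sides of 0.

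Every member of the T-cell receptor complex and coreceptor list was higher in thymocytes. All 15 of 15 genes passed the threshold upward, against 30.3% of all genes, and their median log2 ratio was 4.59. The coreceptor chain Cd8a ran from 6.00 to 6.56 with a median of 6.31 (mean 6.32 ± 0.20, SD, n = 6), and its partner chain Cd8b1 from 4.87 to 5.02 (30.2-fold). Cd4, the other coreceptor, was nearer to the reference, with 2.90 to 3.26 and a median of 3.15 (8.69-fold; a second probe gave a mean of 4.0). These are ratios to the reference and not levels, so they do not rank the coreceptor messages in thymocytes. Among the signal-transducing CD3 chains, Cd3d had 5.63 to 6.03 (56.3-fold), Cd247, the zeta chain, 4.90 to 5.62 (34.6-fold), Cd3g 3.92 to 4.24 (17-fold) and Cd3e 3.15 to 3.44 (9.79-fold). Ptcra, the surrogate alpha chain of the pre-receptor that a cell carries before its own alpha chain is rearranged, had 5.50 to 5.79 with a median of 5.58 (48.3-fold, limma, adjusted p = 5.18e-07). The costimulatory receptor Cd28 and the inhibitory receptor Cd5 were 24.8- and 24-fold higher.

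All 25 of 25 genes of T-cell receptor signalling were higher too, with a median log2 ratio of 3.45 and a range from 1.42 to 7.34. The Src-family kinase Lck, which phosphorylates the CD3 chains, ran from 4.80 to 5.05 with a median of 4.87 (mean 4.88 ± 0.09, SD, n = 6; 29.5-fold). Zap70, the kinase that docks on them, had 3.50 to 3.72 (12.1-fold) and the scaffold Lat 2.91 to 3.22 (8.63-fold). The 6 arrays of each of these genes lay within 0.50 of each other, far from 0. Plcg1, the phospholipase downstream of Lat, which many cell types use, had the smallest ratio of the list, 1.34 to 1.47 (2.67-fold, limma, adjusted p = 4.60e-06).

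In the V(D)J recombination list 10 of 12 genes were higher, 0 were lower, and the median was 1.56. The lymphoid-specific members led it. Rag1, a subunit of the recombinase, ran from 5.29 to 5.77 with a median of 5.57 (47.1-fold, limma, adjusted p = 5.18e-07), and a second probe had Cy5 but not Cy3 above background. Rag2, the other subunit, had 7.79 to 9.90, with Cy3 above background on 2 of 6 arrays. The members that repair breaks in all cells were closer to the reference: the DNA ligase Lig4 had 4.10 to 4.33, the Ku70 gene Xrcc6 2.60 to 2.79 and the nuclease Dclre1c (Artemis) 1.04 to 1.63. The Ku80 gene Xrcc5 (mean -0.34) and the kinase Prkdc (0.40) did not reach 1.5-fold.

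The promoter windows of 3 of these genes, and of a collagen gene from the low end for contrast, are printed because these genes lie together at one end of the ratios. They are RefSeq sequences of build GRCm38.p6 around the start site, on the strand of the gene, with capitals for TGTGGT (the RUNX core) and CAGCTG (an E-box, the same on both strands), searched on both strands. Rag1 lies at chr2:101649483-101649782 on the minus strand, Ptcra at chr17:46763663-46763962 on the minus strand, Cd8a at chr6:71373177-71373476 on the plus strand and Col3a1 at chr1:45311288-45311587 on the plus strand.
Rag1: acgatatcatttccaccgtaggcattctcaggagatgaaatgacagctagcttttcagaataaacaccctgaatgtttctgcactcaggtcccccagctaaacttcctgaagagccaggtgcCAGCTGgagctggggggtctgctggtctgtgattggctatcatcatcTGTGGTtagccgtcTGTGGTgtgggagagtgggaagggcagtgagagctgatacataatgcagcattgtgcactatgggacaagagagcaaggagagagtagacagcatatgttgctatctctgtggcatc
Ptcra: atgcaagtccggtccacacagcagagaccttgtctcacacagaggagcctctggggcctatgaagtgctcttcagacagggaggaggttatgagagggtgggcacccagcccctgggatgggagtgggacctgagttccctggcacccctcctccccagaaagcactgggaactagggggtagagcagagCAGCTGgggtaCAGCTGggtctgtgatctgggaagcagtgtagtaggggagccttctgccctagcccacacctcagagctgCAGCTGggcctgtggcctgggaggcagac
Cd8a: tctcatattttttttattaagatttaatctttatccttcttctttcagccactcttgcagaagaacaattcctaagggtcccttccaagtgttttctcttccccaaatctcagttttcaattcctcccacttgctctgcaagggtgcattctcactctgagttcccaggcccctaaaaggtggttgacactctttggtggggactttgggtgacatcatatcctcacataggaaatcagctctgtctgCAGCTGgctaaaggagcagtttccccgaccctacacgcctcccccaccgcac
Col3a1: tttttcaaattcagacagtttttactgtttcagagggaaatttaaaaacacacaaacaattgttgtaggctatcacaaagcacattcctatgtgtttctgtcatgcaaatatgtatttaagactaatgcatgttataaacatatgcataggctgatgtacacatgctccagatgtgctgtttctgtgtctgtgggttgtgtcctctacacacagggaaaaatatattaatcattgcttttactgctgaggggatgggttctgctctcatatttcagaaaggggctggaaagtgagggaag
The Rag1 window holds 2 RUNX cores and 1 E-box, the Ptcra window 3 E-boxes, the Cd8a window 1 E-box and the Col3a1 window none of either. The promoter table held 44 of the 61 genes on the receptor, signalling, V(D)J and double-positive lists, with 66 windows. The E-box was in 24.2% of these windows, in 14.5% of the windows of all genes that were higher and measured in both channels, in 17.2% of those that were lower and in 16.3% of all windows in the table. For the RUNX core the shares were 15.2%, 13.8%, 12.9% and 16.8%. The windows of the 4 lists held a median of 7 CpG dinucleotides, those of the higher genes 19, those of the lower genes 19, those of the genes not called 21, those of the matrix and cytoskeleton lists 13 and all windows given 7. A match of letters is a description of the sequence and not a binding site.

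Transcription factors separated by lineage. Of 24 factors on the T-lineage list, 17 were higher and 1 lower, with a median of 2.22. Satb1 ran from 6.06 to 6.48 with a median of 6.21 (mean 6.24 ± 0.15, SD, n = 6). Tcf7, the TCF1 factor that starts the T program, had 4.75 to 5.01 (28.8-fold). Myb, which double-positive cells need, had 4.56 to 4.72 (24.9-fold). The zinc-finger factors Bcl11b (3.85 to 4.20) and Ikzf1 (3.66 to 4.21) and the CD4-lineage factor Gata3 (1.72 to 1.99) were lower in the order but above 0 on every array. The E protein Tcf3, which many cells use, had 0.47 to 0.85 (1.57-fold), and was not called after normexp and loess (0.57), where the list had 15 higher. Runx1 was the member called lower, with -1.28 to -0.76, but its second probe, also measured in both channels, gave a mean of 1.68, so its direction is not settled. Of 16 factors of other lineages, 14 could be compared, of which 2 were higher and 10 lower, with a median of -1.82, or -1.43 with the 2 genes dim in Cy5 at their bounds (9 and 7 lower after normexp with and without loess). Cebpb, a myeloid and liver factor, had -4.42 to -3.83 (16.9-fold lower). The haematopoietic factor Tal1 and the myeloid and B-cell factor Spi1 had no Cy5 signal above background on any array and were at least 12.8- and 2.53-fold lower, the latter not called after normexp. The exceptions were Irf8 (1.57 to 1.91) and the erythroid factor Gata1 (2.31 to 4.32, with Cy3 above background on 1 of 6 arrays).

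**Figure D2:**
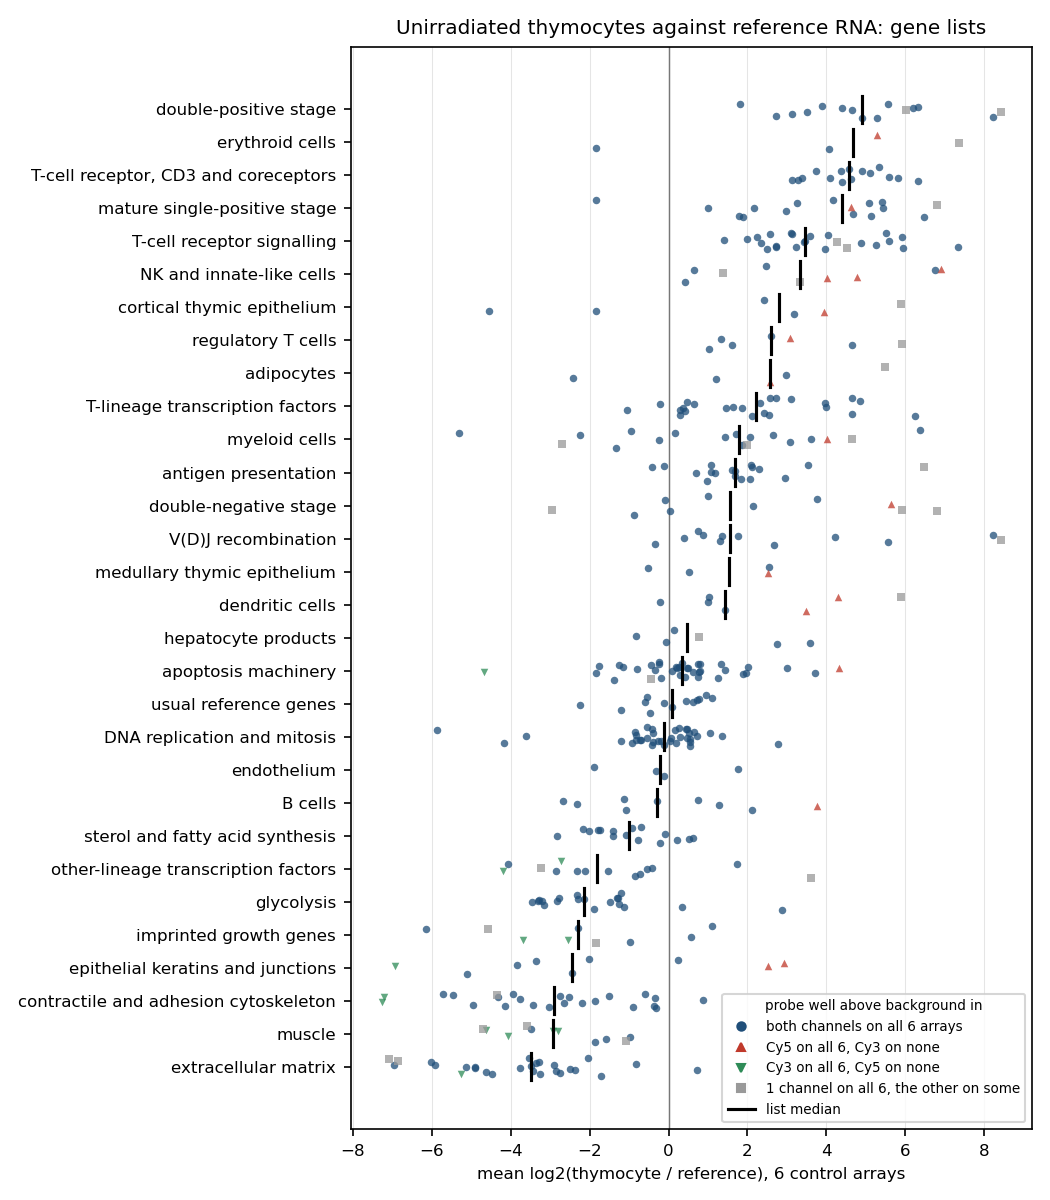
Mean log2 ratio of thymocyte over reference over the 6 control arrays (x axis) of each compared gene in 30 lists (y axis), 1 probe a gene, with the list median as a bar and the shape of a point giving the channels in which its probe was above background. The double-positive, receptor and signalling lists lie wholly to the right of 0, and the matrix list lies to its left except for Tgfbi.

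Markers of the double-positive and mature stages were higher almost throughout, and those of the double-negative stage were mixed. All 15 of 15 double-positive genes were higher, with a median of 4.92, including Aqp11 (6.10 to 6.38) and the endonuclease Endou (5.15 to 5.43). The smallest ratio was that of Cd24a, the heat-stable antigen, with 1.61 to 1.96 (3.53-fold). Of 16 mature single-positive genes 15 were higher, with a median of 4.40, or 3.71 with the gene dim in Cy3 at its bound (3.25 and 3.54 after normexp with and without loess). Ccr7, which leads mature cells to the medulla, ran from 6.16 to 6.76 with a median of 6.44 (limma, adjusted p = 5.18e-07), and Ms4a4b from 5.17 to 5.78. S1pr1, the exit receptor, had 1.57 to 2.03 and its activator Klf2 1.83 to 2.40. Ly6c1 was the member called lower, with -2.02 to -1.55 on its main probe and a mean of -1.23 on a second. It belongs to a family of near-identical genes. Of 11 double-negative genes on the array 10 could be compared, 6 were higher and 2 lower, with a median of 1.56. The progenitor receptor Kit was at least 13.3-fold higher. The interleukin-2 receptor chain Il2ra had 5.34 to 6.52, with Cy3 above background on 4 of 6 arrays, and the Notch target Dtx1 3.64 to 3.90 (13.6-fold). Cd44, an adhesion receptor of early progenitors that many other cells carry, was lower on its main probe (-1.16 to -0.53), which was not called after normexp without loess (-0.50). Its other probes were lower too, and 2 of them had Cy3 alone above background. Hes1, another Notch target, had -3.38 to -2.23, with Cy5 above background on 3 of 6 arrays.

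The apoptosis machinery, the subject of the study, held genes on both sides. Of 37 genes, 15 were higher and 7 lower, with a median of 0.35, against 30.3% and 33.1% of all genes. The death receptor Fas had 3.49 to 3.93 with a median of 3.76 (13.2-fold), and its ligand Fasl was at least 8.10-fold higher, with no Cy3 signal. Among the BCL2 family, the survival genes Bcl2l1 (1.81 to 2.14; 4.04-fold) and Bcl2 (1.60 to 2.13; 3.73-fold) and the BH3-only gene Bmf (2.86 to 3.21; 7.99-fold) were higher. The effector Bax (-0.88 to -0.67; 1.74-fold lower, and not called after normexp without loess), the TRP53 target Pmaip1, or Noxa (-2.12 to -1.43; 3.38-fold lower), and the inflammatory caspase Casp1 (-2.02 to -1.58; 3.60-fold lower) were lower. Bbc3, or Puma, had a mean of 0.28 ± 0.10 (SD, n = 6), under 1.5-fold. Of the genes that the study also followed with other assays, the kinase gene Mapk14 was higher (0.60 to 0.92; 1.64-fold, limma, adjusted p = 2.20e-04) and Dlc1, a small GTPase regulator, was at least 8.62-fold lower. Trp53 (-0.64 to -0.28) and the mitochondrial fission gene Fis1 (0.28 to 0.57) were on one side of 0 on every array but under 1.5-fold. A second Fis1 probe, not measured in both channels on all arrays, had a mean of -3.50, so the probes of Fis1 disagree. This second probe is the one for which the study listed a sex difference in Fis1.

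Proliferation genes were near the level of the reference. Of 37 genes of DNA replication and mitosis, 5 were higher and 10 lower, and the median was -0.13 (11 and 5, with a median of 0.14, after normexp without loess). The D cyclins, which start the cell cycle, differed from each other. Ccnd3, the D cyclin of thymocytes, ran from 2.63 to 2.94 with a median of 2.75 (6.80-fold higher), and Ccnd1 from -3.80 to -3.43 with a median of -3.61 (12.3-fold lower). Pcna, the sliding clamp of replication, had 0.81 to 1.25 (2.06-fold). The cell cycle inhibitors also went in both directions. Cdkn1b (p27) had 1.28 to 1.41 (2.55-fold higher), Cdkn1a (p21) -4.29 to -4.07 (18-fold lower) and Cdkn2a, a senescence locus often active in cultured cells, -6.01 to -5.65 (58.3-fold lower, limma, adjusted p = 5.18e-07).

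Glycolysis was lower almost throughout. Of 19 genes 17 were lower and 1 higher, with a median of -2.14. Tpi1, triosephosphate isomerase, ran from -3.52 to -3.33 with a median of -3.46 (11-fold lower), the glucose transporter Slc2a1 from -3.53 to -3.16 (9.85-fold) and Hk2, the inducible hexokinase, from -2.95 to -2.66 (7.03-fold). Both lactate dehydrogenase chains were measured. Ldha, the chain of glycolytic tissues, had -1.37 to -1.16 (2.45-fold lower), and Ldhb had 2.72 to 2.99 (7.35-fold higher), the one glycolysis gene called higher. In sterol and fatty acid synthesis 11 of 16 genes were lower and 1 higher, with a median of -1.0. Sqle, squalene epoxidase, had the lowest ratio, -3.28 to -2.53 with a median of -2.77 (7.04-fold lower), and Acly, which makes cytosolic acetyl-CoA, was called higher (0.49 to 0.74; 1.53-fold). Antigen presentation went the other way: 16 of 18 genes were higher and 0 lower, with a median of 1.68. The immunoproteasome subunit Psmb8 had 2.23 to 2.34 (4.87-fold) and the peptide transporter Tap1 1.60 to 2.06 (3.57-fold). The class I chain H2-K1 had 0.86 to 1.30 (2.10-fold) and the class II chain H2-Ab1, which thymic epithelium, dendritic cells and B cells carry, 3.33 to 3.73 (11.6-fold). Probes of the H2 family may share signal among near-identical members.

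The labels do not give the cell sources of the reference, and the lists picked here to stand for them were mostly lower in thymocytes. These lists were chosen with earlier results of these data known, so their direction is a description and no independent finding. In the extracellular matrix list 26 of 27 genes were lower, with a median of -3.49. Col1a1 ran from -6.12 to -5.64 with a median of -5.97 and Col3a1 from -5.17 to -4.58 with a median of -4.97. Thbs1, the matrix protein thrombospondin 1, had -7.88 to -6.26, with Cy5 above background on 2 of 6 arrays. Tgfbi, which macrophages also make, was the one called higher (0.35 to 1.02; 1.66-fold, limma, adjusted p = 1.97e-03), and it was not called after normexp and loess (0.55). Of 24 cytoskeletal and adhesion genes 20 were lower and 1 higher, with a median of -2.89. Vim, the mesenchymal intermediate filament, had -3.18 to -2.81 (8.21-fold lower), the lamin gene Lmna -4.45 to -4.16 (19.9-fold) and S100a6 -5.85 to -5.56 (52.4-fold). Cald1, which binds actin in smooth muscle and fibroblasts, was at least 55.8-fold lower, with no Cy5 signal above background.

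Embryonic and tissue-specific genes, on lists picked in the same way, gave a mixed account. Of the imprinted growth genes 9 of 11 could be compared, 7 were lower and 1, the inhibitor Cdkn1c, was higher (0.73 to 1.51; 0.58 and not called after normexp and loess). All 11 muscle genes that could be compared of 13 were lower, with a median of -2.93, or -2.02 with the 4 genes dim in Cy5 at their bounds (9 lower, with medians of -1.50 and -1.17, after normexp with and without loess), among them the desmin gene Des (at least 11.2-fold) and the regulator Myog (at least 4.07-fold). Only 4 of these 11 muscle genes were measured in both channels on all 6 arrays, and 5 of the 9 imprinted genes. The rest of both lists entered only through Cy3, so the filter largely set their side of 0. Of 12 epithelial genes 9 could be compared, with 2 higher and 6 lower and a median of -2.44. The keratins of simple epithelia Krt8 (-3.98 to -3.68), Krt18 (-3.60 to -3.13) and Krt19 (-5.41 to -4.97) were lower. Only 6 of 13 hepatocyte genes could be compared, with 3 higher and 1 lower. The fetal liver gene Afp was the one lower (-1.01 to -0.62), and it was not called after normexp without loess (-0.45). Apoe, which macrophages make too, was higher (3.31 to 3.83; 12-fold).

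The suspension held transcripts of other thymic cells. Among 18 myeloid genes 11 were higher and 5 lower, with a median of 1.79. The neutrophil protein gene S100a9 had 6.03 to 6.77 with a median of 6.33 (82.5-fold, limma, adjusted p = 8.58e-07), and the complement genes of macrophages C1qa (4.44 to 5.08, with Cy3 above background on 5 of 6 arrays), C1qb (2.76 to 3.53) and C1qc (3.37 to 3.89) were higher. The endotoxin coreceptor Cd14, another macrophage gene, had -5.58 to -4.89 with a median of -5.38 (39.9-fold lower). Of 11 NK and innate-like genes 9 could be compared, 8 were higher and 0 lower, with Gzma and Klrd1 in the lead. All 7 regulatory T-cell genes were higher, including Foxp3, the factor that defines them (0.56 to 1.33; 2.05-fold, not called after normexp), and Ikzf2 (4.50 to 4.92). B-cell genes divided, with 4 higher and 4 lower of 9 compared and mean log2 ratios from -2.68 to 3.76. All 9 had Cy5 well above background on all 6 arrays. The adaptor Blnk was 6.42-fold lower (-2.83 to -2.45), while Pax5 and Cd79a were above background on 3 of 6 arrays. Of 10 dendritic cell genes 7 could be compared, with 6 higher and 0 lower. Of 7 erythroid genes 4 could be compared, with 3 higher and 1 lower, including the haem enzyme Alas2 at least 20.2-fold higher and Hba-a1 at 3.97 to 4.29, a gene with near-identical copies. Both channels were measured on all 6 arrays for 4 of the 9 NK and innate-like genes and 4 of the 7 dendritic cell genes. For the regulatory T-cell and erythroid genes it was 5 of 7 and 2 of 4. The rest of these 4 lists entered only through Cy5, so the filter largely set their side of 0.

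Thymic epithelium was represented by some of its genes. Of 10 cortical genes 6 could be compared, 4 were higher and 2 lower. Psmb11, the thymoproteasome subunit made only by cortical epithelium, had 3.06 to 4.67 with a median of 4.01 and was at least 3.94-fold higher. The serine protease Prss16 had 2.30 to 3.76 (9.12-fold) and the chemokine Ccl25 1.64 to 2.87 (5.32-fold), while the stromal chemokine Cxcl12 had -4.94 to -4.11 (23.4-fold lower). The epithelial master regulator Foxn1 had Cy5 above background on 4 of 6 arrays and Cy3 on none, the Notch ligand Dll4 on 1 and the medullary regulator Aire on 2. Of 8 medullary genes 4 could be compared, with 2 higher and 0 lower, and of 8 endothelial genes 4, with 1 higher and 1 lower. The cortical epithelial and fat markers had larger spreads than the T-cell receptor list, as did some other lists. The median SD over the 6 arrays was 0.397 for the cortical list, 0.471 for 5 adipocyte genes and 0.132 for the receptor list, against 0.161 for all genes. It was 0.335 for the myeloid list, 0.348 for the NK and innate-like list and 0.294 for the double-negative list. Of the 5 adipocyte genes 4 were higher and 1 lower. The genes Cfd, the complement factor adipsin (3.28 to 6.42), Adipoq, adiponectin (1.09 to 3.24), and Fabp4, a fatty acid carrier (2.05 to 3.31), were each lowest in female control replicate 3. The haemoglobin gene Hbb-b1 (4.92 to 8.55) was lowest in female control replicate 2. Whether the cells held in each suspension set these values was not tested.

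Some genes commonly used for normalisation differed from the reference. Of 13 such genes 5 were higher, 2 lower and 6 not called, with a median of 0.09. Actb had 0.81 to 1.39 (2.15-fold higher), Ppia 0.74 to 1.09 (1.92-fold) and Hprt 0.50 to 0.78 (1.54-fold). Gapdh, a glycolytic enzyme, had -1.33 to -1.09 (2.31-fold lower) and Gusb -2.42 to -2.16 (4.73-fold lower). The spread of this list was small, with a median SD of 0.108.

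Probes outside annotated messenger RNAs also differed. Of 16194 probes to genome intervals 5608 entered the comparison, or 34.6% against 68.5% of the probes to RefSeq messenger RNAs. Past the threshold were 55.8% of these interval probes, 1799 higher and 1332 lower, against 62.6% of the messenger RNA probes, 5451 higher and 5996 lower. Among the unnamed interval probes measured in both channels, 21 were at least 16-fold higher and 7 at least 16-fold lower, with a largest log2 ratio of 5.72. Among unnamed Ensembl transcript probes the counts were 23 and 14.

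The female and male controls differed at few probes. Of the 29904 probes 9, or 0.0301%, passed, with 3 higher (0.01%) and 6 lower (0.0201%) in the males. Over 1 probe a gene 2 of 14394 genes (0.0139%) did, both higher in males. All 9 probes report on X- or Y-linked transcripts by their accession or gene name. Ddx3y, a Y-linked helicase, had a mean of 1.82 ± 0.02 (SD, n = 3) in males and -6.31 ± 0.11 in females, and its Cy5 signal was at least 64.2-fold higher in males (limma, adjusted p = 8.01e-05). For Eif2s3y, a Y-linked translation factor, the means were 3.37 ± 0.25 in males and -5.82 ± 0.11 in females, and males were at least 119-fold higher. Xist, the RNA that coats the silenced X chromosome, went the other way: 1 of its 2 named probes was at least 22.1-fold higher in females (1.47 ± 0.28 against -3.41 ± 0.61, SD, n = 3; limma, adjusted p = 0.0248). That call was lost when any female array or male control replicate 2 or 3 was left out (limma, adjusted p from 0.128 to 0.189). The second named Xist probe had -5.27 ± 2.12 in males, where replicate 2 was at -2.87, and did not pass (limma, adjusted p = 0.257). Without that array it passed (limma, adjusted p = 0.0399). The 5 probes whose accession field reads XIST, with no gene name in the table, gave male minus female differences from -9.64 to -7.40 on the log2 scale.

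The probes for X-linked genes that escape silencing gave smaller differences. Kdm6a, a histone demethylase, had a female mean of 1.61 ± 0.11 against 0.90 ± 0.12 in the male arrays (SD, n = 3 each). For Eif2s3x the brighter probe had 0.47 ± 0.16 and -0.01 ± 0.04, and neither difference passed (limma, adjusted p = 0.299 and 0.470). Another Eif2s3x probe went the opposite way, with a male mean of 1.80 ± 0.17 against -0.13 ± 0.18 for the female arrays (limma, adjusted p = 0.0303, and from 0.115 to 0.191 with any 1 array left out), so the probes of this gene disagree. Its Y-linked partner Eif2s3y is a near copy, and shared signal was not tested. Among all 29904 probes the male and female values did not overlap for 18.4%. In the T-cell lists the medians of the male minus female difference were -0.11 for the receptor list, 0.05 for signalling and -0.13 for the double-positive list, and 0 of their genes passed. With 3 arrays against 3 the exact permutation test cannot go below 0.1.

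**Figure D3:**
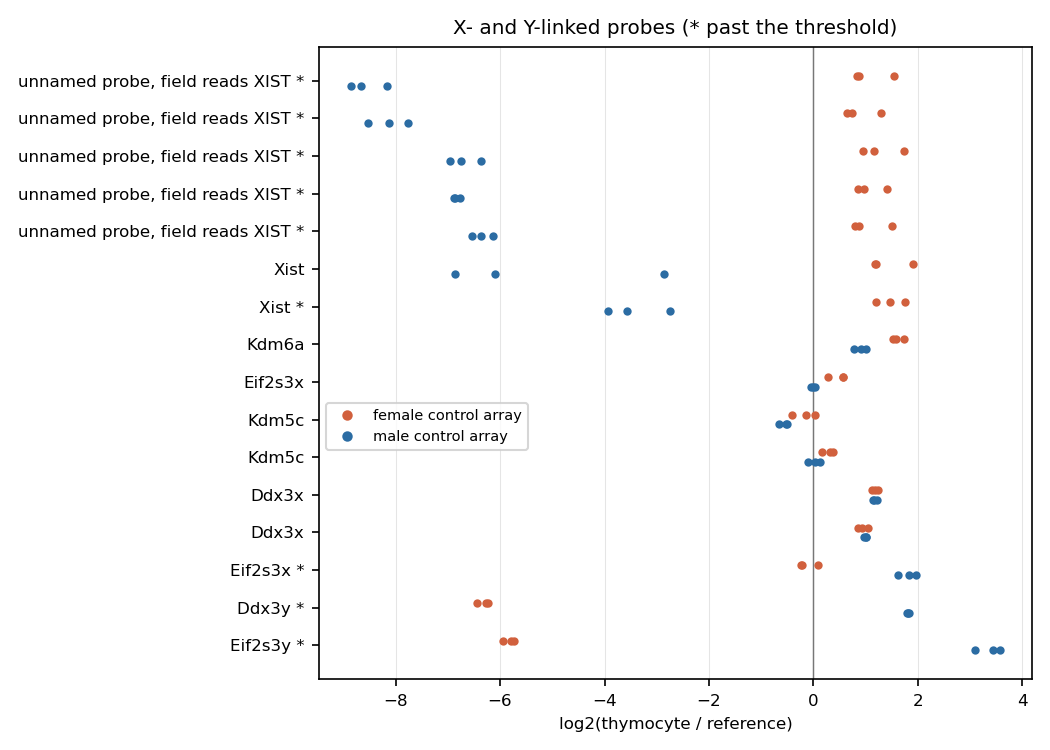
Log2 ratio of thymocyte over reference (x axis) on each of the 3 female and 3 male control arrays for the compared probes of X- and Y-linked genes (y axis), with an asterisk on probes that passed the threshold between the sexes. The male and female dots are widest apart for the XIST, Ddx3y and Eif2s3y probes.

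Against the 18 irradiated arrays, the T-cell receptor program of the controls stood out little, and other groups of genes did. With all 24 arrays fitted as 8 group means, 7582 probes, or 25.4%, differed between control and irradiated thymocytes, 3964 (13.3%) higher and 3618 (12.1%) lower in controls. Over 1 probe a gene the shares were 14% and 10.6%. The probes were kept by their signal on the control arrays alone, so that those bright only after irradiation are left out, and with no filter 4632 were higher and 4686 lower in controls. With slide as a block 5739 passed, 2887 higher and 2852 lower. All high-dose and RAR arrays were on the slide of male control replicate 1 or on a slide without controls. Slide and these treatments can therefore hardly be told apart, and the block links them to the controls only through male control replicate 1 and the low-dose arrays. The split depends on the scaling, with 1070 higher and 2671 lower after normexp and loess and 7276 and 1020 after normexp without loess. Without female RAR replicates 2 and 3 the counts were 4099 and 3548. Of the 15 receptor genes and the 25 signalling genes 0 passed, but 6 and 11 were higher in controls after normexp without loess. Lck had a control median of 4.87, and the highest control value (5.05) lay inside the range of the irradiated arrays. Still, 14 of 18 irradiated arrays lay above all controls for Lck, and 15 of 18 for Cd3d. The differences were -0.22 ± 0.06 and -0.42 ± 0.10 (SE), both under 1.5-fold. Cd8a differed by -0.31 ± 0.11 (SE), under 1.5-fold, and by 0.47 after normexp without loess, which turns its direction.

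Replication and sterol genes were higher in the controls. Of 37 replication and mitosis genes 15 were higher and 2 lower than in irradiated thymocytes, and 12 to 23 were higher under the other scalings. Pcna had a control range of 0.81 to 1.25, above all 18 irradiated arrays, and a difference of 1.27 ± 0.06 (SE; limma, adjusted p = 5.00e-11). Cdc6, which loads the replicative helicase, differed by 1.82 ± 0.12 (SE), also without overlap. In sterol and fatty acid synthesis 9 of 16 genes were higher and 0 lower, and 5 to 12 were higher under the other scalings. Cyp51, lanosterol demethylase, had a control median of -1.43, and medians of -3.10 at low dose, -3.11 at high dose and -3.93 after RAR. Sqle differed by 1.55 ± 0.09 (SE). The cortical epithelial gene Psmb11 had Cy5 above background on all 6 control arrays and on 2 of 18 irradiated arrays. It entered only through its Cy5 signal in the controls, so this is given as a description. Prss16 and Ccl25 were higher in controls, by 1.24 ± 0.20 and 0.76 ± 0.15 (SE).

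Parts of the matrix, myeloid and apoptosis lists were lower in the controls. Of 27 matrix genes 13 were lower and 2 higher, of 18 myeloid genes 9 and 2, and of 37 apoptosis genes 8 and 5. After normexp without loess these counts were 4 and 1 for matrix, 5 and 1 for myeloid and 3 and 14 for apoptosis genes, so that the balance of the apoptosis list turns with the scaling. Bbc3 ran from 0.15 to 0.43 in controls, with medians of 2.88 at low dose, 3.09 at high dose and 2.93 after RAR, and a difference of -2.68 ± 0.05 (SE; limma, adjusted p = 1.03e-16). Pmaip1 differed by -2.90 ± 0.08, Cdkn1a by -2.90 ± 0.08 and Bax by -2.10 ± 0.06 (SE), and the controls lay below all 18 irradiated arrays for each of them. Thbs1 had a control median of -7.14 and medians of -3.08, -2.80 and -0.76 at low dose, high dose and after RAR. Its Cy5 signal was above background on only part of the control arrays, so the size of this difference is uncertain. Cd14 differed by -3.34 ± 0.15 and S100a8, the partner of S100a9, by -2.0 ± 0.16 (SE). Of 16 mature single-positive genes 5 were lower in controls and 0 higher, among them S1pr1 (-0.78 ± 0.08) and Ms4a4b (-0.71 ± 0.11, SE), both of which lost the call after normexp without loess (-0.42 and -0.18). The markers of epithelial and myeloid cells moved with these gene groups, and their part in the differences was not tested.

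**Figure D4:**
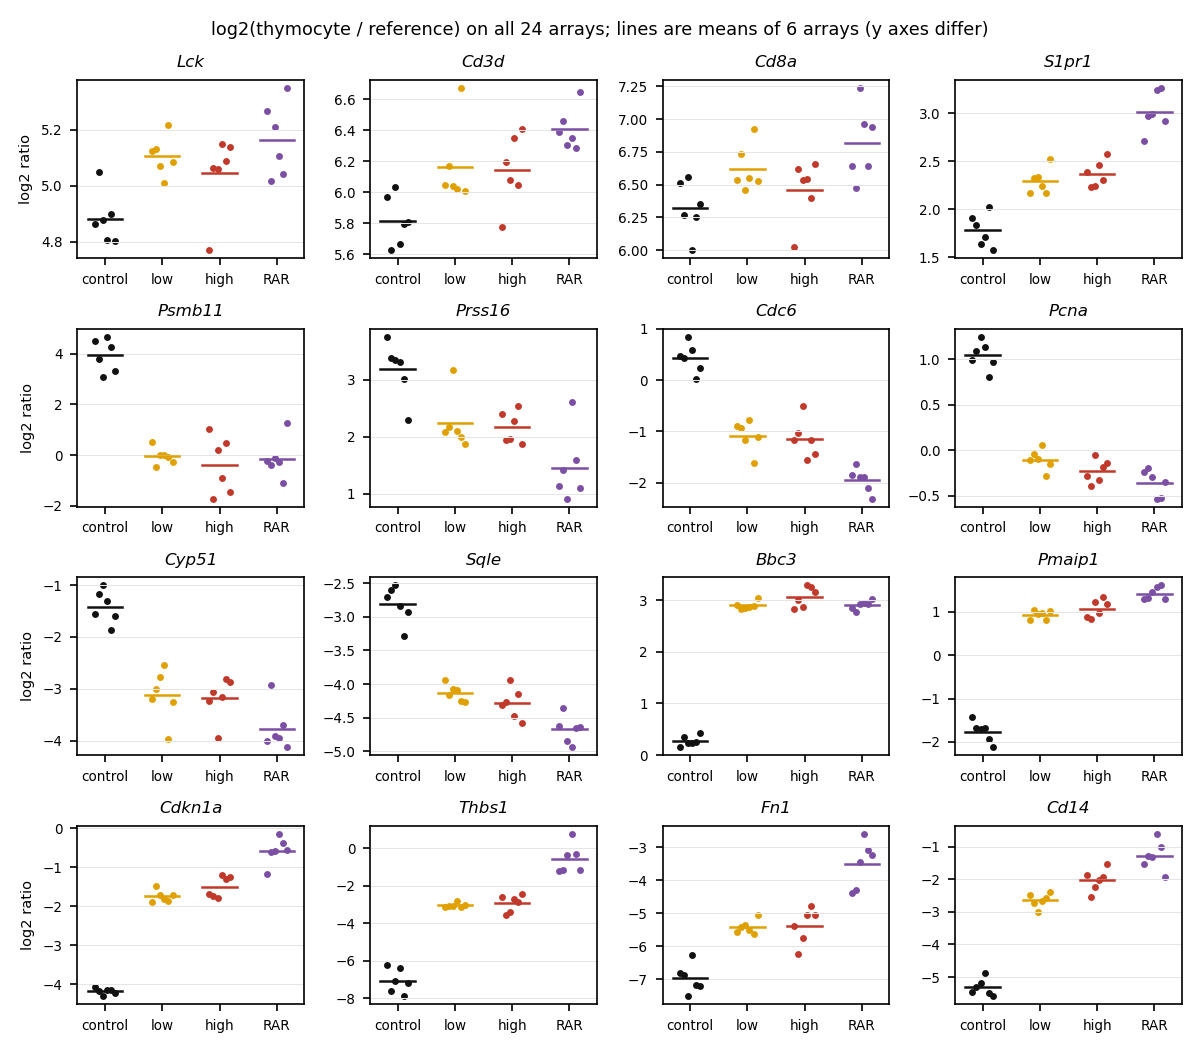
Log2 ratio of thymocyte over reference (y axes, which differ in range) on the 6 control, 6 low-dose, 6 high-dose and 6 RAR arrays for 16 genes, with lines at the group means. The control dots of Psmb11 (Cy5 above background on 2 of 18 irradiated arrays), Cdc6, Pcna, Cyp51 and Sqle lie above all irradiated dots. Those of S1pr1, Bbc3, Pmaip1, Cdkn1a, Thbs1 (Cy5 above background on only part of the control arrays), Fn1 and Cd14 lie below them. The control dots of Lck, Cd3d, Cd8a and Prss16 overlap the irradiated dots.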

How the data were processed

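Thymocyte RNA of 24 mice was hybridized in Cy5 against a common reference in Cy3 on Agilent arrays of 62976 spots. Per the file headers, Feature Extraction 11.5.1.1 gave raw intensity in both channels and background-subtracted, dye-normalized signals; the study's methods name another version. The authors deposited log2 Cy5/Cy3 values per probe, which match Feature Extraction's processed Cy5 over Cy3 to within 0.01 for 99.8% of probes, and these were tested. Columns of values left unmatched to a sample numbered 0. The files name build mm9. RefSeq accessions (GRCm38.p6 table, names only) named 28026 of 55681 probes, or 21154 genes, and 27655 probes have no name here.

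Groups follow the labels. The 6 control arrays were fitted in limma 3.58.1 (R 4.3.3) as a female and a male mean, whose average was tested against 0, with 4 residual degrees of freedom. All p-values were adjusted by Benjamini-Hochberg over 55681 probes. Bounds came from Aquantile channel means with a floor at the lowest signal above background on each array. Each gene was represented by its kept probe with the highest mean of both channels. Among 3456 genes measured in both channels with several kept probes, those of 742 disagreed in sign. Disagreement in call was not counted. All members of the gene lists could be named, plus the 15 highest, the 15 lowest and the 10 largest bounds each way. The members and lists were chosen with earlier results of these data known. Some list members are counted but not reported here. The fit was tested on simulated data. Python 3.11.15, pandas 2.3.3 and matplotlib 3.10.9 drew the plots. Alternatives covered source signals, background correction (normexp, offset 50, which starts from raw signals and so changes the scaling too), scaling, filter, fold threshold, slide, samples and pairing, with slide and samples also changed together. Replicate numbers did not pair samples, as deviations of equal numbers correlated at -0.19, -0.01 and 0.05. The labels call the samples independent and the methods give 3 individuals a group, so p-values measure the spread between mice. The number of arrays limits the precision.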

Additional observations from a re-analysis of the deposited data

Results flagged for a closer look

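The ratio of thymocyte over reference differed between male and female controls, by the test of the difference, for 9 probes. The 5 probes whose accession field reads XIST gave male minus female differences of -9.64, -9.03, -7.97, -7.91 and -7.40 on the log2 scale, and the Xist probe gave -4.88. Eif2s3y gave 9.19 and Ddx3y 8.13. The Eif2s3x probe gave 1.92, while the brighter probe of that gene gave -0.48. All 3 male values lay apart from all 3 female values for each of the 9 probes, as for 18.4% of all 29904 probes compared. The 9 probes were picked by this same difference, so the separation adds nothing to the test.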

How the results depend on the processing

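The count against the reference stayed within 1.5 times of 18156 under every alternative tried, from 12855 at a 2-fold threshold to 24514 with none, and from 17920 to 18079 with 1 control array left out. With only the slide that held 5 control arrays it was 18079. The count of listed genes past the threshold was 342, and ran from 283 to 396. Of the 162 results computed for single genes or probes, 133 kept their direction and side of the threshold under every alternative run on them.

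The male against female count of 9 was less stable. It was 42 after normexp and loess, 138 after normexp without loess, 3 with both channels required and 63 without a filter. It rose to 2400 when each group lost its most distant value. That rule narrows the spread within groups by design, so 2400 is no estimate of the number of sex differences. The count was 27 with all 24 arrays in the fit and 21 with slide as a block in that fit (an alternative chosen after seeing the data). With slide as a block in the 6 arrays it was 8, and 7 to 8 with 1 control left out. With replicate number as a block limma called 0, with 1986 probes at an unadjusted p under 0.05 against 2359 without it. The replicate numbers do not pair the samples, and the block gave 17961 probes against the reference and 7554 between control and irradiated arrays. The count of 7582 between control and irradiated arrays was 3741 after normexp and loess, 2566 at 2-fold, 16767 with no fold threshold and 7119 to 7698 with 1 control left out.

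After normexp without loess Cd8a, Lck and Cd3d in controls minus irradiated turned to 0.47, 0.53 and 0.26. The cause was not tested. Probes dim in 1 channel are limited to bounds, and the number of arrays limits the precision of the comparison of sexes.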
